A study of Homo sapiens with 8 samples.

Results

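The genes described here are general splicing factors and nuclear RNA-binding proteins measured in Caco-2, a human colorectal cancer cell line, after silencing or overexpression of ESRP1. They were chosen by name and by detection on the arrays, with earlier results of these data known. A gene was taken if its symbol in the platform annotation began with HNRNP, SRSF, SFRS, SF3, U2AF, SNRP or RBM, with RBM47, RBM35A and RBM35B left out. At least 1 of its probes also had to be detected (detection p under 0.01) on 2 or more of the 8 arrays. This gave 94 genes of 10805 measured with a named probe. The brightest probe stood for each gene, and the values that follow are normalized log2 levels of that probe unless another probe is named. By family they were 26 hnRNP genes, 11 SR genes (SRSF), 11 SF3 and U2AF genes, 11 snRNP genes (SNRP) and 35 RBM genes.

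The 4 groups of adherent Caco-2 cells were compared on Illumina BeadChips, with 2 arrays per group. ESRP1-silenced cells carried a hairpin against ESRP1 in the pLKO.1 lentivirus, and their Scr controls carried a scrambled hairpin. ESRP1-overexpressing cells carried the human ESRP1 reading frame in the pLX304 lentivirus, and their Empty controls carried the vector alone. Infected cells had been kept under puromycin for pLKO.1 and blasticidin for pLX304, and no single-cell cloning was described. The silenced arrays were both labelled with 1 hairpin, sh4, and what that hairpin does on its own cannot be told apart from what the loss of ESRP1 does. Nothing in the sources says whether the 2 arrays of a group came from separate cultures, so the spread behind the p-values is only that between these arrays and may be technical. ESRP1 itself was at 8.26 and 7.91 in Empty cells against 9.75 and 9.96 in ESRP1-overexpressing cells, a log2 fold change of 1.77 (adjusted p = 0.00378 from limma). It was at 8.03 and 8.32 in Scr cells and at 6.37 and 6.16 in ESRP1-silenced cells, where it was not detected on either array.

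Splicing depends on a general machinery that removes introns and on proteins that steer it. The small nuclear ribonucleoproteins (snRNPs) hold a ring of Sm proteins around each spliceosomal RNA, the U2AF proteins read the end of the intron, and the SF3 complexes sit with U2 at the branch site. SR proteins mostly promote the use of nearby exons and hnRNP proteins often repress it, while RBM is a naming class for proteins that share an RNA-recognition motif and differ in role. ESRP1 is an epithelial regulator that acts together with these factors on chosen exons. Many of these genes also regulate their own messages by including exons that lead to decay. An array probe reads 1 stretch of a message, so it gives neither exon inclusion nor protein.

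The arrays fell on 2 chips. Scr and ESRP1-silenced arrays shared the first, and Empty and ESRP1-overexpressing arrays the second, so each ESRP1 comparison lay within 1 chip. Arrays of different chips also differed in vector and selection drug, so rankings over all 8 arrays are given below as values with no test. Probes detected per array numbered 16966 to 17535 on the first chip and 15153 to 15627 on the second. Over the 94 genes, the correlation between arrays was 0.992 to 0.996 within a group, 0.987 to 0.994 between the groups of a chip and 0.966 to 0.98 across chips. Of 8 intestinal epithelial markers 7 were detected on all 8 arrays, KRT20 being the exception, and 3 of 4 endothelial markers on none. Of the leukocyte markers PTPRC and CD3E were detected on no array and CD68 and LYZ on all 8, and 1 of 6 fibroblast markers, PDGFRB, on all 8. RNA was taken from whole cultures, so fewer cells with a message and less message per cell cannot be told apart.

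The names matched 205 probes of 118 genes, and 143 probes of the 94 genes passed detection. On all 8 arrays 89 genes were detected, and RBM19, RBM33, RBM43, HNRNPCL2 and HNRNPA1L2 on 3 to 7. The 24 genes left out for lack of a detected probe included 9 RBMY genes, RBM11, RBM20, RBM24 and RBM46. SNRPE, an Sm protein, had 2 probes detected on no array. SF3A1 and RBM8A, part of the U2-bound SF3A complex and of the exon junction complex, had 1 such probe each. A probe that is not detected gives no measure of the gene. Of the 94 genes 7 were taken as pseudogenes or near-identical copies, and their probes may share signal with the parent gene. HNRNPA1P10, HNRNPA1P33, HNRNPA3P1 and RBMY2FP are annotated as pseudogenes, and HNRNPA1L2, HNRNPCL2 and HNRNPCL3 as protein coding.

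In ESRP1-overexpressing cells few genes of the splicing machinery were called against Empty cells. SNRPN and RBM38 were the 2 genes of 94 that rose past the threshold (limma over 18231 probes, Benjamini-Hochberg adjusted p under 0.05), and 0 fell. Over all genes with 1 probe each, 8.07% were called in this comparison (7.43% of probes), 4.41% as higher and 3.66% as lower. Among the 2416 genes whose level was at or above the median of the 94, a range in which the probes also varied less, 3.56% were called. Before adjustment (p under 0.05) 6 of the 94 were higher and 3 lower, 9.57% against 26.8% of all genes and 19.8% of those bright genes.

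The size of the differences was likewise small. The median log2 fold change of the 94 genes was 0.041, beside 0.00035 for all genes, and the median size without regard to direction was 0.128, beside 0.225 for all genes and 0.147 for the bright genes. Only 5 of the 94 (5.32%) differed by more than 0.5 on the log2 scale, where 19.2% of all genes and 5.46% of the bright genes did. The bright genes lie in the upper part of the range of the 94, so they are no match for the dimmer members, and no test was made against either set. The 95% confidence interval of the fold change lay within 1.5-fold in both directions for 65 of the 94 and within 2-fold for 88. For the other 6 the interval reached beyond 2-fold. The shares within 1.5-fold and 2-fold were 69.1% and 93.6%, beside 45% and 80% of all genes and 75.2% and 97.6% of the bright genes. The arrays of the groups did not overlap for 58 of the 94 (61.7%, 32 higher and 26 lower), beside 60.3% of all genes.

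In ESRP1-silenced cells 0 of the 94 genes were called in limma's test, where 0.157% of all genes (0.132% of probes) were. Those 24 probes also fell to 0 when any 1 of the 8 arrays was left out. Before adjustment 3 had a p under 0.05 as higher and 4 as lower, 7.45% against 14.4% of all genes. The lowest adjusted p was 0.161, that of RBM4. The median log2 fold change was 0.011, beside -0.016 for all genes, and the median size was 0.146, beside 0.172 for all genes and 0.13 for the bright genes. A difference of more than 0.5 was seen in 3 genes (3.19%), beside 8.3% of all genes and 2.36% of the bright genes. The interval lay within 1.5-fold for 63 genes and within 2-fold for 90. These shares were 67% and 95.7%, beside 53.3% and 87.6% of all genes and 81% and 99.4% of the bright genes. The arrays did not overlap for 48 genes (51.1%, 28 higher and 20 lower), beside 47.6% of all genes. A variance prior that follows the level of the probe and is robust to outliers called 3 of the 94 here, beside 3.01% of all probes. These were RBM4 and SRSF5 as higher and RBM25 as lower.

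**Figure D1:**
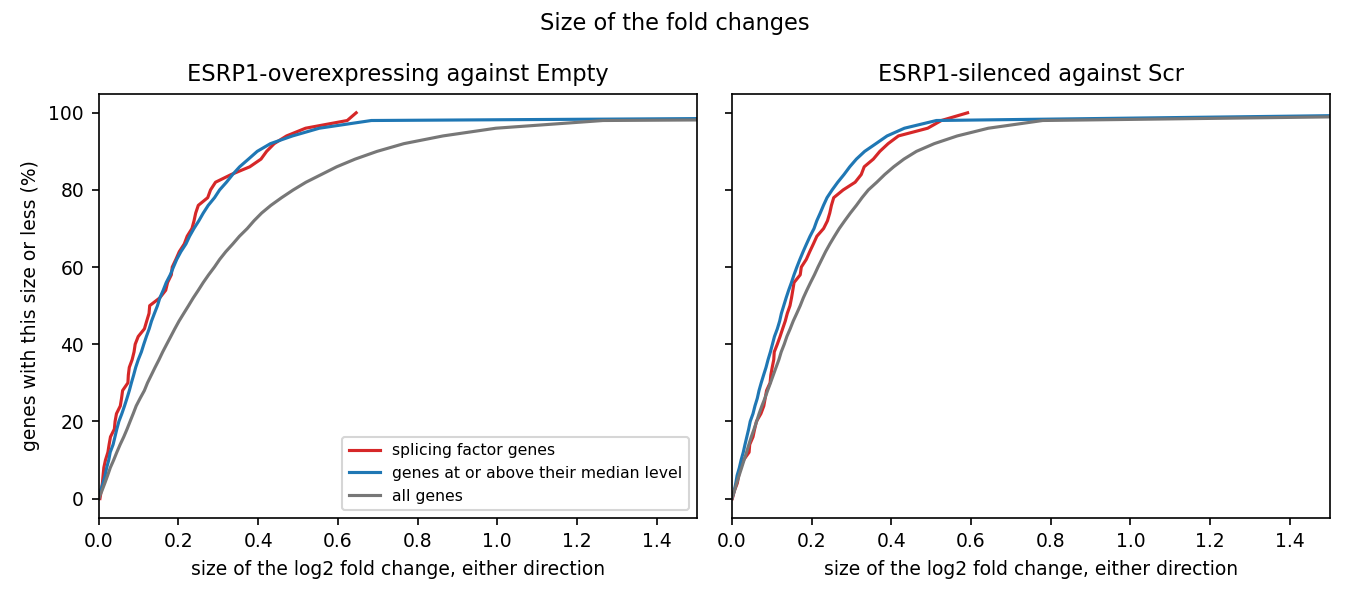
Cumulative share of genes (y axis, percent) by the size of the log2 fold change (x axis, either direction, cut at 1.5), for ESRP1-overexpressing against Empty cells on the left and ESRP1-silenced against Scr cells on the right. The line of the 94 splicing factor genes ends below 0.7 in both panels and runs near that of the 2416 genes at or above the median level of the 94, left of all 10805 genes for most of its course.

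**Figure D2:**
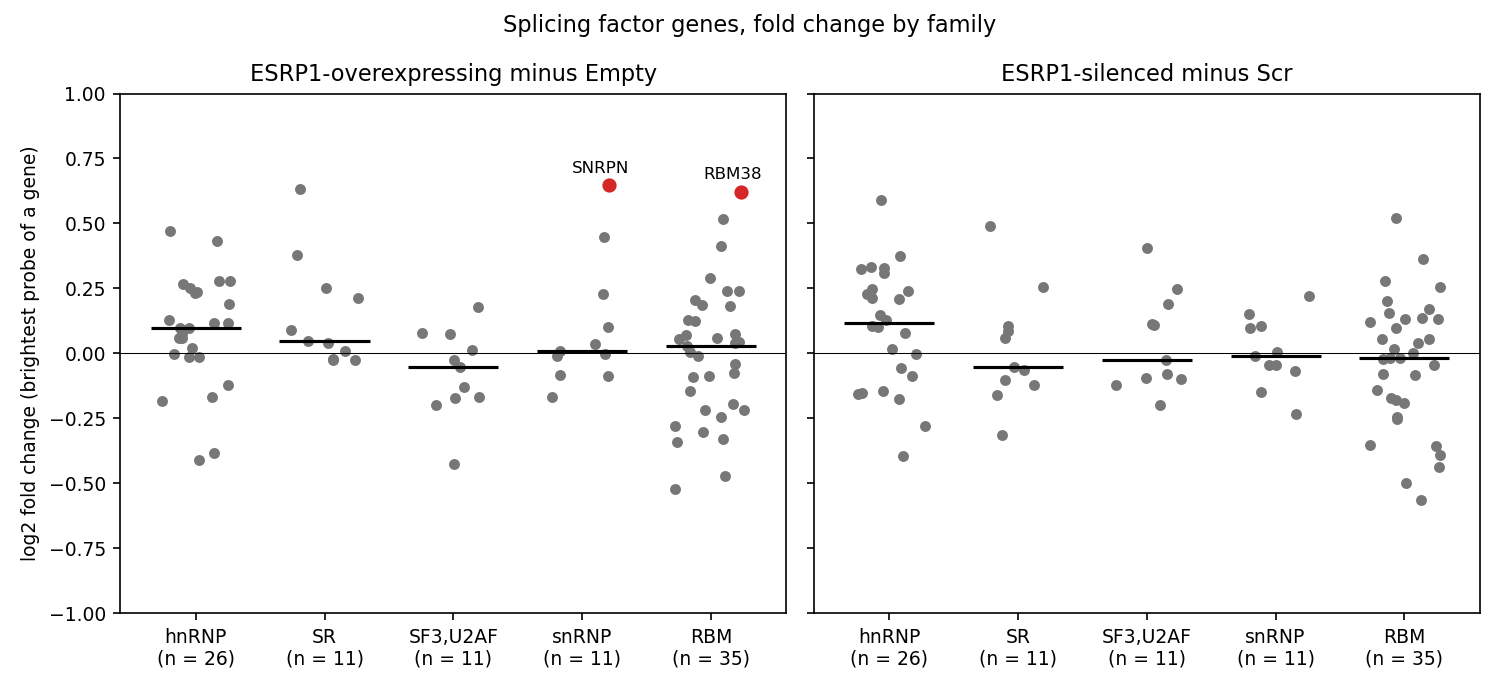
Log2 fold change of the brightest probe of each of the 94 genes (points), by family, with the family median as a bar. SNRPN and RBM38, at 0.65 and 0.62, are the called genes (red, left panel), and no gene is called in the right panel.

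Among the snRNP genes 1 of 11 was called in ESRP1-overexpressing cells and 0 of 11 in ESRP1-silenced cells, with family medians of 0.0075 and -0.010. Over all genes 8.07% and 0.157% were called in these comparisons, so the count of calls in a family this small says little about it. The called gene was SNRPN, which encodes SmN, a close relative of the Sm core protein SmB that is expressed from the paternal copy of an imprinted locus. Its level was 12.53 and 12.45 on the Empty arrays, against 13.20 and 13.07 on the ESRP1-overexpressing pair. It was 12.16 and 12.37 on the Scr arrays and 12.13 and 12.10 on the ESRP1-silenced arrays. Both ESRP1-overexpressing arrays thus stood above all 6 others. This was a 1.56-fold rise, 0.65 ± 0.12 as log2 fold change and standard error (limma adjusted p = 0.0302), and in ESRP1-silenced cells the log2 fold change was -0.15 (adjusted p = 0.65).

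SNRPN had 2 further detected probes. The second read 11.69 and 11.64 in Empty cells against 12.28 and 12.37 in ESRP1-overexpressing cells, a log2 fold change of 0.66 (adjusted p = 0.0281 from limma). On this probe the Scr arrays were at 12.08 and 12.25 and the ESRP1-silenced arrays at 12.27 and 12.08. Here the Empty arrays were the low group, and the ESRP1-overexpressing arrays lay just above the 4 of the first chip. The third read 10.25 and 10.30 in Empty cells against 10.97 and 10.70 in ESRP1-overexpressing cells, a log2 fold change of 0.55 that did not pass (adjusted p = 0.066). All 3 probes were higher in both ESRP1-overexpressing arrays than in both Empty arrays, while the place of Empty relative to Scr differed between probes across the 2 chips. In ESRP1-silenced cells the log2 fold changes of the 3 probes ran from -0.15 (the brightest) to 0.33.

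SNURF, an upstream reading frame carried on the same message as SNRPN, was looked up after the values of SNRPN had been seen. Its probe read 11.63 and 11.62 in Empty cells against 12.41 and 12.28 in ESRP1-overexpressing cells (log2 fold change 0.72, adjusted p = 0.0222 from limma). On the first chip it read 12.18 and 12.08 in Scr and 12.23 and 12.01 in ESRP1-silenced cells. The pattern was that of the second SNRPN probe. Since the message is shared, these probes are not independent of each other. Neighbouring genes, chosen in the same way, were not called. MAGEL2 had a log2 fold change of 0.05, MKRN3 of 0.01, and the 2 probes of UBE3A of -0.15 and 0.11. NIPA1 was at -0.32 (adjusted p = 0.151 from limma), ATP10A at -0.30 (adjusted p = 0.57), and the 2 probes of NIPA2 at 0.04 and -0.10. NDN, IPW and PWAR5 had no probe that passed detection.

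The other Sm and snRNP genes did not pass. SNRPD1, an Sm core protein, read 9.99 and 9.93 in Empty cells against 10.53 and 10.28 in ESRP1-overexpressing cells (log2 fold change 0.45, adjusted p = 0.0947 from limma). On the first chip it read 10.37 and 10.21 in Scr and 10.17 and 10.27 in ESRP1-silenced cells. The ESRP1-overexpressing arrays did not overlap with the Empty arrays but lay in or just above the range of the first chip. SNRPB, which encodes SmB, had log2 fold changes of 0.04 and -0.04 in ESRP1-overexpressing and ESRP1-silenced cells, and SNRPA, a protein of the U1 particle, of -0.01 and -0.01. The 95% interval of SNRPB in ESRP1-overexpressing cells ran from -0.23 to 0.30, and that of SNRPN from 0.35 to 0.94.

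**Figure D3:**
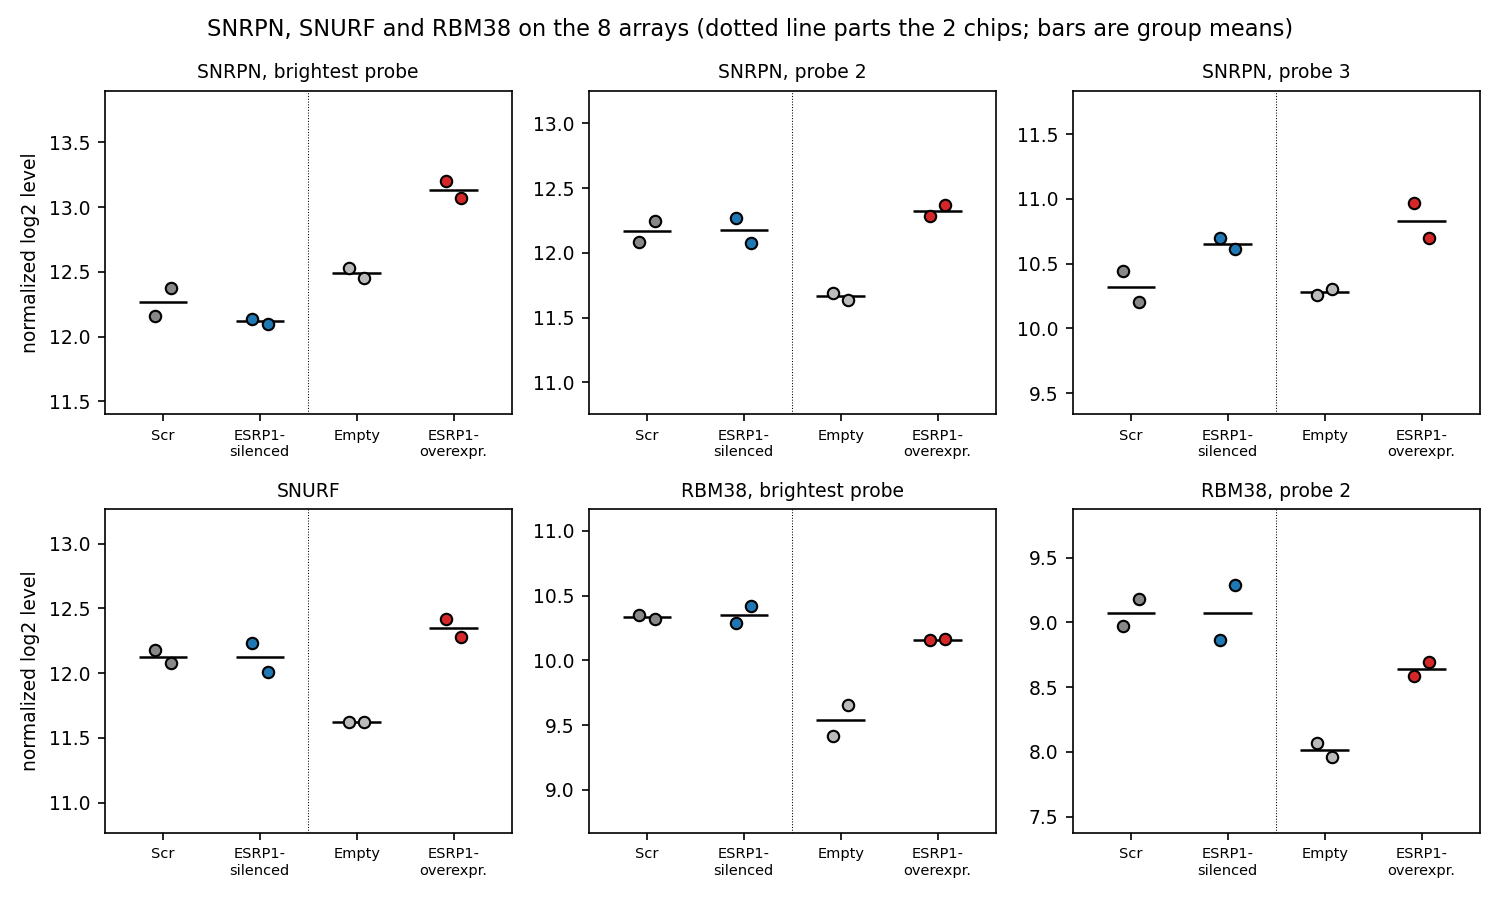
Normalized log2 level (y axis, of the same span in each panel) on each of the 8 arrays (points, 2 per group) with the group mean (bar), for 3 probes of SNRPN, 1 of SNURF and 2 of RBM38. In each panel both ESRP1-overexpressing points lie above both Empty points, and in 4 of the 6 panels (SNRPN probe 2, SNURF and both RBM38 probes) the Empty points are the lowest of all.

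Of the SF3 and U2AF genes 0 of 11 were called in either comparison, beside 8.07% and 0.157% of all genes. The family medians were -0.053 and -0.025. SF3B1, the U2 protein that grips the branch site, read 12.54 and 12.62 in Scr cells, 12.50 and 12.50 in ESRP1-silenced cells and, on the second chip, 12.58 and 12.47 in Empty cells against 12.55 and 12.65 in ESRP1-overexpressing cells. The log2 fold changes were 0.08 and -0.08, each with a standard error of 0.11. SF3A3, a subunit of the SF3A complex, had 0.08 and -0.10.

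U2AF1, the small U2AF subunit that recognises the AG at the intron's end, was the SF3 or U2AF gene with the largest difference in ESRP1-silenced cells. It read 11.03 and 11.18 on the Scr arrays and 11.38 and 11.64 on the ESRP1-silenced arrays (log2 fold change 0.40, adjusted p = 0.276 from limma). On the second chip it read 11.60 and 11.58 in Empty cells against 11.54 and 11.59 in ESRP1-overexpressing cells, a difference of -0.03. The 2 Scr arrays were the lowest of the 8. U2AF1L4, a relative of U2AF1, had a log2 fold change of -0.42 in ESRP1-overexpressing cells (adjusted p = 0.248), with arrays at 8.58 and 9.10 in Empty cells against 8.26 and 8.57 in ESRP1-overexpressing cells. The 2 Empty arrays differed from each other by more than the lower one did from the nearest ESRP1-overexpressing array.

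The SR genes likewise gave 0 calls of 11 in either comparison, beside 8.07% and 0.157% of all genes. Their family medians were 0.047 and -0.052. SRSF1, SRSF2 and SRSF6, broadly expressed exon activators, had log2 fold changes of 0.04, 0.21 and 0.01 in ESRP1-overexpressing cells and -0.06, 0.11 and -0.16 in ESRP1-silenced cells. SRSF3, the smallest SR protein, had 0.25 and -0.05, and SRSF7, its close relative, -0.02 and -0.31. None of these 10 differences passed.

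SRSF11, an SR-related protein, had the second highest log2 fold change of the 94 in ESRP1-overexpressing cells, 0.63, and was not called (adjusted p = 0.155 from limma). It read 7.77 and 8.38 on the Empty arrays, against 8.80 and 8.60 on the ESRP1-overexpressing pair, 7.73 and 7.90 on the Scr arrays and 7.90 and 7.48 on the ESRP1-silenced arrays. The ESRP1-overexpressing arrays were the highest of the 8, and the 2 Empty arrays were far apart. The standard error was 0.24, beside 0.12 for SNRPN.

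SRSF5, an exon-activating SR protein, gave one of the clearer differences in ESRP1-silenced cells without a call. It read 12.54 and 12.72 on the Scr arrays and 13.06 and 13.17 on the ESRP1-silenced arrays, a log2 fold change of 0.49 (adjusted p = 0.187 from limma). A second probe gave 0.52, with 12.44 and 12.17 in Scr and 12.81 and 12.83 in ESRP1-silenced cells. Both probes were higher in each ESRP1-silenced array than in each Scr array. On the second chip the brightest probe read 13.32 and 13.30 in Empty cells against 13.25 and 13.32 in ESRP1-overexpressing cells, so the Scr arrays were again the low ones.

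Among the hnRNP genes 0 of 26 were called in either comparison, beside 8.07% and 0.157% of all genes. More hnRNP genes lay above than below 0 in both, 18 of 26 in ESRP1-overexpressing and 17 of 26 in ESRP1-silenced cells, with medians of 0.099 and 0.117. No test was made of these counts, and several of the genes share sequence. HNRNPA1 and HNRNPA2B1, abundant exon repressors, had log2 fold changes of 0.12 and 0.25 in ESRP1-overexpressing cells and 0.33 and 0.08 in ESRP1-silenced cells. A second HNRNPA1 probe gave 0.49 in ESRP1-overexpressing cells. HNRNPC, which binds uridine runs, had -0.18 in ESRP1-overexpressing and -0.17 in ESRP1-silenced cells. Its second probe gave -0.45 and 0.15, of the other sign in ESRP1-silenced cells.

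HNRNPF and HNRNPH1, which bind runs of G, had 0.06 and 0.02 in ESRP1-overexpressing cells and -0.28 and 0.33 in ESRP1-silenced cells. None of these was called, and a second HNRNPH1 probe gave 0.05 in ESRP1-silenced cells. HNRNPK, which binds runs of C, had -0.0038 and 0.11, and HNRNPL, which binds CA repeats, 0.06 and 0.24. The 4 probes of HNRNPK ran from -0.43 to 0.25 in ESRP1-overexpressing cells. HNRNPM binds GU-rich sequence and is known to act against ESRP1 on shared exons. It read 14.55 and 14.31 in Scr cells, 14.02 and 14.54 in ESRP1-silenced cells and, on the second chip, 14.18 and 14.27 in Empty cells against 14.32 and 14.32 in ESRP1-overexpressing cells. Its log2 fold changes were 0.10 in ESRP1-overexpressing cells (interval -0.34 to 0.54) and -0.15 in ESRP1-silenced cells (interval -0.59 to 0.29). The ESRP1-silenced arrays of HNRNPM were far apart and overlapped with the Scr arrays.

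The hnRNP genes at the edges of the range did not pass either. HNRNPDL, a relative of HNRNPD, read 10.83 and 10.59 in Empty cells against 11.07 and 11.21 in ESRP1-overexpressing cells (log2 fold change 0.43, adjusted p = 0.0965 from limma). HNRNPLL, a relative of HNRNPL known for CD45 splicing in lymphocytes, read 9.37 and 9.70 in Scr and 8.94 and 9.34 in ESRP1-silenced cells, with a log2 fold change of -0.39 (adjusted p = 0.447). HNRNPA3, which is related to HNRNPA1, had 0.37 in ESRP1-silenced cells, with 10.53 and 10.58 on the Scr and 10.94 and 10.92 on the ESRP1-silenced arrays. The lowest and highest values of the family in ESRP1-overexpressing cells and the highest in ESRP1-silenced cells were those of probes for copies, -0.41 for HNRNPCL3 and 0.47 for HNRNPA1L2 and 0.59 for HNRNPA1P33.

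Of the 35 RBM genes 1 was called in ESRP1-overexpressing cells and 0 in ESRP1-silenced cells, beside 8.07% and 0.157% of all genes. The family medians were 0.030 and -0.018. The called gene was RBM38, a p53 target that binds messages such as that of p21 and alters their stability. It read 9.42 and 9.66 on the Empty arrays, against 10.16 and 10.16 on the ESRP1-overexpressing pair. On the first chip it read 10.35 and 10.32 in Scr and 10.29 and 10.42 in ESRP1-silenced cells. The Empty arrays were thus the low group, and ESRP1-overexpressing cells lay slightly below the arrays of the first chip. The chips also differ in vector and selection drug, and this ranking across them was not tested. The log2 fold change was 0.62 (standard error 0.13, adjusted p = 0.0339 from limma), a 1.54-fold rise, and in ESRP1-silenced cells it was 0.02 (adjusted p = 0.972). A second probe read 8.07 and 7.96 in Empty cells against 8.59 and 8.69 in ESRP1-overexpressing cells, a log2 fold change of 0.63 that did not pass alone (adjusted p = 0.0747).

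Both calls rested on few arrays. Without either Scr array SNRPN kept its call (adjusted p = 0.0468 from limma), and it lost it without any 1 of the other 6, with adjusted p from 0.0525 (either ESRP1-silenced array) to 0.146 (ESRP1-overexpressing replicate 1). RBM38 lost its call without any 1 of the 8, with adjusted p from 0.0524 (Empty replicate 2) to 0.14 (ESRP1-overexpressing replicate 1). The log2 fold changes then ran from 0.58 to 0.71 for SNRPN and from 0.5 to 0.74 for RBM38. Both calls were also lost in a fit of only the 4 arrays compared (adjusted p = 0.09 for SNRPN and 0.109 for RBM38) and without the detection filter (0.102 and 0.115). An array outside the comparison enters through the shared estimate of the spread.

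RBMS2, a single-strand nucleic acid binding protein, came nearest to a call among the genes that were lower. It read 8.45 and 8.45 in Empty cells against 7.90 and 8.07 in ESRP1-overexpressing cells (log2 fold change -0.47, limma adjusted p = 0.0551). It was also lower in ESRP1-silenced cells, 8.17 and 8.15 against 8.55 and 8.47 in Scr cells (-0.35, adjusted p = 0.277). Both of the altered lines thus lay below their own controls, and neither difference passed. With detection required on all 8 arrays, or with the mean of a gene's detected probes, the difference in ESRP1-overexpressing cells was called (adjusted p = 0.0267 and 0.0339). RBM34 had -0.33 in ESRP1-overexpressing and 0.36 in ESRP1-silenced cells, with Empty arrays at 10.99 and 10.82 and ESRP1-overexpressing arrays at 10.62 and 10.53. A probe for the pseudogene RBMY2FP had the lowest value of the 94 in ESRP1-overexpressing cells, -0.52 (adjusted p = 0.179).

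RBM4, a splicing and translation regulator, had the lowest p of the 94 in ESRP1-silenced cells. It read 12.42 and 12.39 on the Scr arrays and 12.91 and 12.94 on the ESRP1-silenced arrays, 0.52 ± 0.12 as log2 fold change and standard error (limma adjusted p = 0.161). On the second chip it read 12.44 and 12.65 in Empty cells against 12.58 and 12.59 in ESRP1-overexpressing cells, so the 2 ESRP1-silenced arrays were the highest of the 8. Its 2 other probes gave smaller differences of 0.24 and 0.22.

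RBM25, which steers the splicing of BCL2L1, was lower in ESRP1-silenced cells without a call. It read 11.62 and 11.62 on the Scr arrays and 11.16 and 11.09 on the ESRP1-silenced arrays (log2 fold change -0.50, adjusted p = 0.257 from limma), and 11.81 and 11.41 in Empty cells against 11.63 and 11.73 in ESRP1-overexpressing cells. The ESRP1-silenced arrays were the lowest of the 8. RBM12B had the lowest log2 fold change of the 94, -0.56 (adjusted p = 0.329), with Scr arrays at 8.69 and 9.21 and ESRP1-silenced arrays at 8.56 and 8.22. RBM28, a nucleolar protein, read 9.95 and 9.93 in Scr and 9.60 and 9.56 in ESRP1-silenced cells (-0.36, adjusted p = 0.291).

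**Figure D4:**
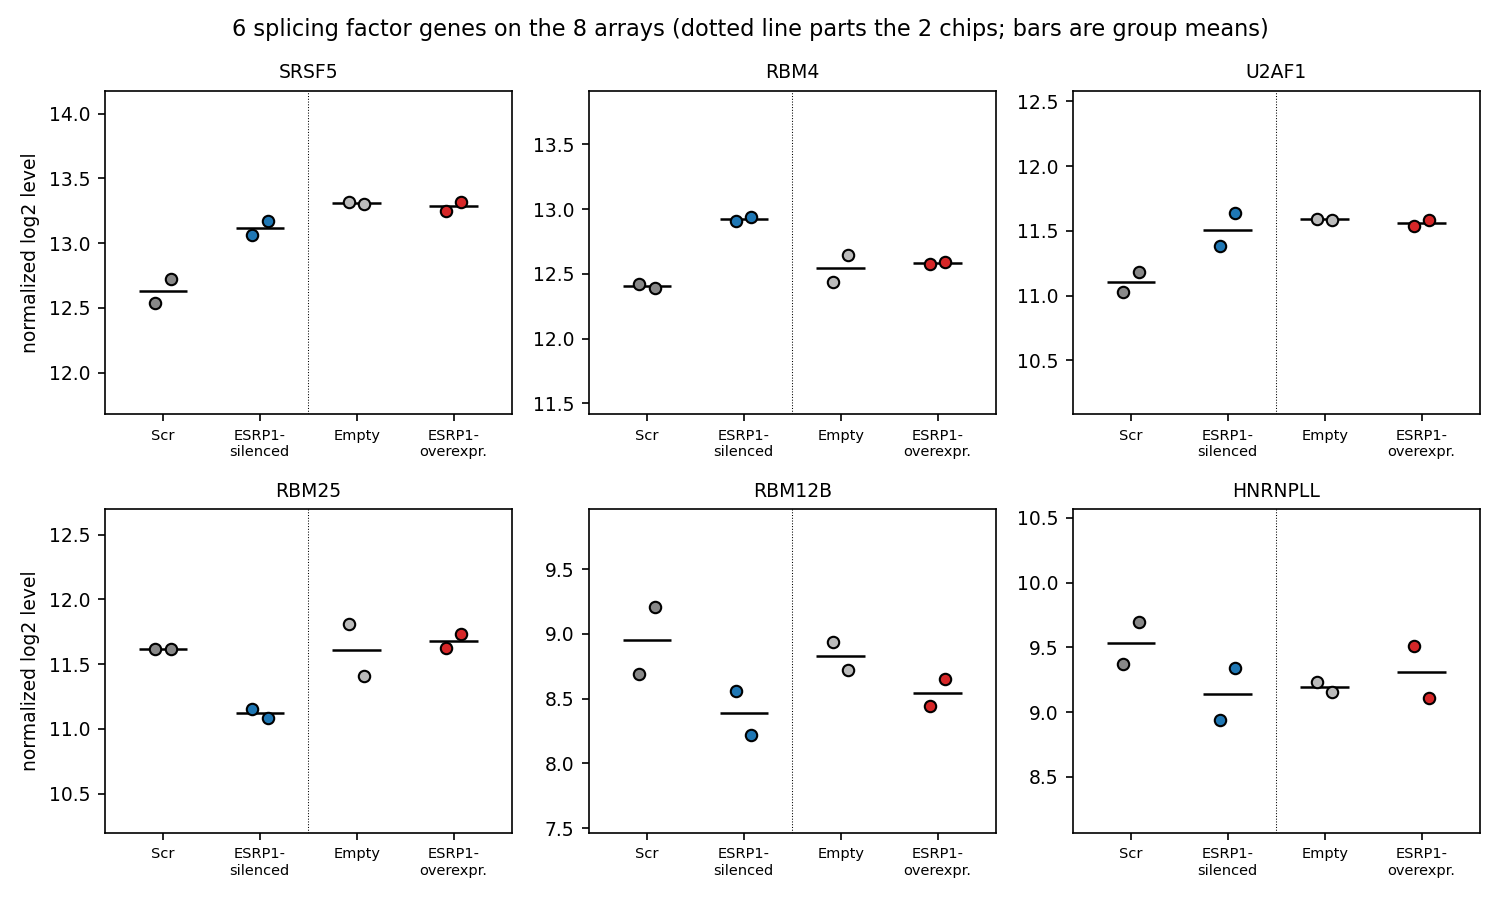
Normalized log2 level (y axis, of the same span in each panel) of SRSF5, RBM4, U2AF1, RBM25, RBM12B and HNRNPLL on each of the 8 arrays (points, 2 per group) with the group mean (bar). The ESRP1-silenced points lie above the Scr points in the top row and below them in the bottom row, none of the 6 differences being called. In RBM4 and RBM25 the ESRP1-silenced points stand outside all other arrays.

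The other RBM genes named gave smaller differences, and none was called. RBM5 and RBM10, related splicing regulators of apoptosis genes, had log2 fold changes of -0.07 and -0.09 in ESRP1-overexpressing and 0.14 and 0.05 in ESRP1-silenced cells. RBM17 (SPF45) and RBM39, which both carry the U2AF homology motif, had 0.20 and 0.04 in ESRP1-overexpressing and 0.17 and -0.08 in ESRP1-silenced cells. RBM3, a cold-induced protein, had 0.06 and -0.08, and RBMX, a nuclear hnRNP-like protein, 0.13 and -0.02.

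The comparisons had no shared control, and their log2 fold changes were set side by side over the 94 genes. They correlated at r = 0.0096 (Pearson, across genes, given as a description), beside -0.013 over all genes. Of the 94 genes 52 had opposite signs in the 2 comparisons (55.3%, beside 50% of all genes). In the test of the difference between the 2 comparisons 0 of the 94 were called, where 3.52% of all genes (3.2% of probes) were, and 11 had a p under 0.05 before adjustment (11.7%, beside 21.6% of all genes). SNRPN came nearest, at a difference of 0.79 on its brightest probe (adjusted p = 0.065 from limma). The size of this difference depends on the probe, since in ESRP1-silenced cells the SNRPN probes ran from -0.15 to 0.33. For RBM38 the difference was 0.61 (adjusted p = 0.121), so neither gene's response to overexpression was shown to differ from that to silencing.

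Of the 94 genes 36 had more than 1 detected probe. The log2 fold changes of a gene's probes spanned a median of 0.143 in ESRP1-overexpressing and 0.199 in ESRP1-silenced cells, and 29 of these genes had spans under 0.5 in both. The probes differed most for RBMX2, U2AF2, HNRNPK, HNRNPA2B1 and HNRNPR. For U2AF2, the large U2AF subunit that binds the pyrimidine tract, the brightest probe gave -0.09 in ESRP1-silenced cells and a dimmer one 0.73 (adjusted p = 0.13 from limma). The dimmer probe read 8.05 and 8.23 in Scr and 8.79 and 8.95 in ESRP1-silenced cells, with no overlap.

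HNRNPA2B1 showed the same kind of split in ESRP1-overexpressing cells. Its brightest probe gave 0.25 and its second -0.44 (adjusted p = 0.0731 from limma), the latter with 12.58 and 12.41 in Empty cells against 12.06 and 12.04 in ESRP1-overexpressing cells. HNRNPK gave 0.11 on its brightest and 0.73 on its dimmest probe in ESRP1-silenced cells (adjusted p = 0.192 for the latter). HNRNPR, an RNA-binding protein of the HNRNPQ type, gave 0.23 and -0.39 in ESRP1-overexpressing cells, and RBMX2 -0.30 and 0.67. The dimmer RBMX2 probe, that with 0.67, was detected on only 6 of the 8 arrays. None of these probes was called, and which stretch of the message each reads was not analysed here.

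Genes of the splicing machinery with other names gave 0 calls in either comparison (beside 8.07% and 0.157% of all genes). Of 55 such genes listed, 49 were measured, and before adjustment a p under 0.05 was found for 4 higher and 1 lower in ESRP1-overexpressing cells (10.2%, beside 26.8% of all genes) and for 5 higher and 4 lower in ESRP1-silenced cells (18.4%, beside 14.4% of all genes). Their median log2 fold changes were 0.051 and -0.0048. Among 9 PRPF genes, which include proteins of the U4/U6.U5 particle, PRPF38B had the highest value in ESRP1-overexpressing cells, 1.23 (adjusted p = 0.053 from limma). It read 6.26 and 7.15 in Empty cells against 8.16 and 7.70 in ESRP1-overexpressing cells, with the 2 Empty arrays far apart. PRPF38B was detected on 7 of the 8 arrays. Its value on Empty replicate 1 lay below the lowest of a detected probe there, 7.05, so the size of this difference is uncertain. PRPF3, of the same particle, read 10.68 and 10.54 in Scr and 11.18 and 11.29 in ESRP1-silenced cells (0.62, adjusted p = 0.134).

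The kinases and partners of SR proteins were measured too. Of 6 SR protein kinases CLK1 had 0.43 in ESRP1-overexpressing cells (adjusted p = 0.0848 from limma) and SRPK1 -0.36 in ESRP1-silenced cells (adjusted p = 0.25). The 9 LSM genes, relatives of the Sm proteins, ranged from -0.24 to 0.22 and from -0.26 to 0.27 in the 2 comparisons. The 7 SNRNP genes ranged from -0.38 to 0.39 and from -0.2 to 0.26. PTBP1, the pyrimidine tract binding repressor, had 0.02 and -0.25.

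The 2 control lines were also set side by side, as Empty minus Scr. Empty and Scr cells differed in vector, selection drug and chip, which cannot be told apart, so their difference is given as a value with no test. Its median size over the 94 genes was 0.307, beside 0.326 over all genes, and it exceeded 0.5 in 27 genes (28.7%, beside 31.8% of all genes) and 1 in 5 genes. In 58 of the 94 (61.7%, beside 51.8% of all genes) it was larger than both ESRP1 differences. As many genes were higher in Empty as in Scr cells, 47 each. By family, 11 hnRNP genes were more than 0.5 higher in Empty and 1 more than 0.5 lower, and among RBM genes 4 were higher and 6 lower by that much. The 11 hnRNP genes include HNRNPA1P10, HNRNPA1P33, HNRNPA3P1, HNRNPCL2 and HNRNPCL3, pseudogenes or copies whose probes may share signal with other genes of the family.

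HNRNPU, a nuclear scaffold protein, had the lowest Empty minus Scr difference, -1.26. It read 10.25 and 10.37 in Scr and 10.01 and 10.32 in ESRP1-silenced cells, and 9.24 and 8.86 in Empty cells against 9.44 and 9.22 in ESRP1-overexpressing cells. The chips did not overlap on this probe. A second HNRNPU probe read 8.94 and 9.24 in Scr and 9.26 and 9.35 in Empty cells, without such a gap and in the other direction. HNRNPUL2, HNRNPA3 and the copy HNRNPA3P1 had the highest differences between the controls, 1.09, 1.09 and 1.06, and RBM17 was at -1.01. In RBM39 the difference was 0.90 and in RBM3 0.77. RBM38 was at -0.80, a gap larger than its rise in ESRP1-overexpressing cells.

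**Figure D5:**
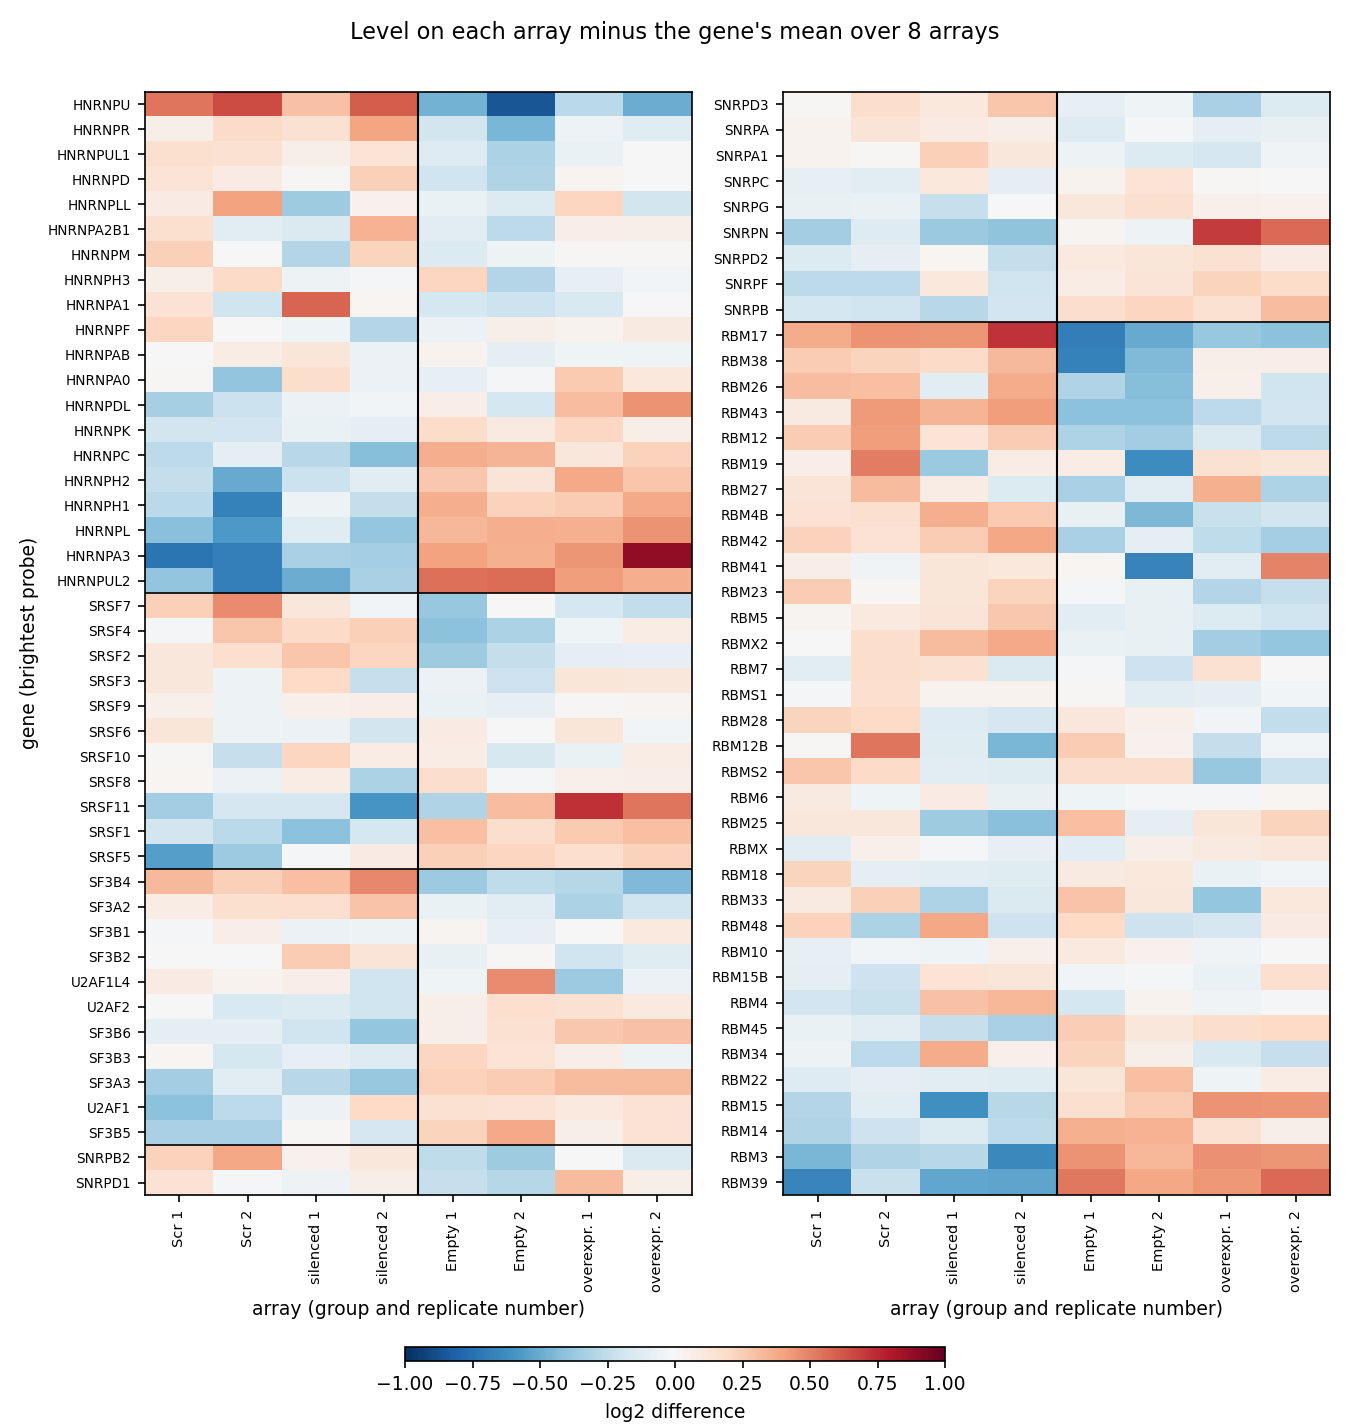
Level of each gene on each array minus its mean over the 8 arrays (colour, log2 scale, red higher), for the genes other than the 7 pseudogenes or near-identical copies. Rows are genes, ordered by family (horizontal lines) and then by Empty minus Scr, and the vertical line parts the 2 chips. In HNRNPU, HNRNPUL2, RBM17 and RBM39 the colours change at the chip line, and SNRPN is deep red on both ESRP1-overexpressing arrays and on no other.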

How the data were processed

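Members and gene lists were chosen with earlier results of these data known. For every array the authors deposited a raw mean intensity of each probe, with no background taken off, and a detection p-value, of which 88 were written with a comma. They also deposited normalized intensity values, used here as an alternative. The software was not given in the sources used here.

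Signals went through neqc (background from detection p-values, offset 16, quantile normalization, log2) of limma version 3.58.1 in R version 4.3.3. Probes detected at p under 0.01 on at least 2 of 8 arrays were kept, 18231 of 47322. A gene was represented by its probe of highest mean level, the same by raw signal for all 94. One limma fit of 4 group means (4 residual and 2.8 prior degrees of freedom) gave both comparisons and their difference, two-sided, with Benjamini-Hochberg adjustment over all probes tested. Genes were named where called, where at the 5 highest or lowest changes without overlap, by a list of well-known factors, or where probes differed most. HNRNPDL, HNRNPU, HNRNPUL2, HNRNPA3P1 and the neighbours of SNRPN were added after their values were seen. The tests were also run on simulated data with normally distributed noise and planted changes. How often changes as small as those seen here were recovered is not reported. Alternatives covered normalization, filter, arrays, block, prior, test and probe choice. The number of arrays limits the precision.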

Additional observations from a re-analysis of the deposited data

How the results depend on the processing

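In ESRP1-overexpressing cells the number of splicing factor genes called, 2, became 4 with quantile normalization without background correction (HNRNPDL and SNRPD1 added), 4 with detection on all 8 arrays (RBMS2 and SNRPD1), 5 with the trended and robust prior (HNRNPDL, SNRPD1 and SRSF4), 3 with the authors' values (HNRNPDL) and with the mean of probes (RBMS2), and 0 without the detection filter, in a fit of only 4 arrays, and under the methods' t-test, be it with the fold filter or after Benjamini-Hochberg. Over all probes the 1354 calls then became 2208, 1750, 2557, 2140 with the authors' values, 508 without the filter and 142 in the fit of 4 arrays. Leaving out 1 array at a time gave 0 to 1 genes, and 376 to 998 probes. SNRPN was called in 8 of 17 alternatives (adjusted p 0.000508 to 0.146) and RBM38 in 7 of 17 (0.0036 to 0.14), and neither changed direction. The replicate block left 1 gene called, RBM38, while SNRPN went to an adjusted p of 0.0523, and reduced the 1354 calls to 1061. The replicate numbers are no stated pairing, and the deviations of same-numbered arrays correlated at 0.058 for Scr with ESRP1-silenced and 0.02 for Empty with ESRP1-overexpressing arrays.

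In ESRP1-silenced cells the count of 0 became 1 (RBM4) with quantile normalization without background correction and 3 with the trended and robust prior. In the difference of the comparisons it became 1 (SNRPN) with that normalization, with the authors' values and with detection on all 8 arrays. It became 6 with the trended and robust prior. Over all probes, 6.85%, 6.48%, 7.73% and 9% were called in that difference under these settings, in the order given. Calls over all probes in ESRP1-silenced cells, 24, were 247, 219 (the authors' values), 46 (each chip apart), 237 (detection on all 8 arrays) and 549 (trended and robust prior), and 0 without the filter, with 4 arrays, with the replicate block or on leaving out any 1 of the 8 arrays. Calls as higher were 25% of these and 45.7% with the authors' values or without background correction. The median log2 fold change of the 94 genes moved there from 0.011 to 0.0309 with the mean of a gene's probes, and leaving out 1 array gave 0.011 to 0.0337. It stayed within the spread in the other settings.

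The related genes, 0 called, gave 3 in ESRP1-overexpressing cells without background correction and with the authors' values, 1 with detection on all 8 arrays, 4 with the trended and robust prior, 2 with the mean of probes, and 0 to 1 on leaving out 1 array. In ESRP1-silenced cells they gave 1, 1, 1 and 2 under the first 4 of these, and in the difference 1 with the trended and robust prior. The cause of these shifts was not tested. With 2 arrays per group, a 1.5-fold change lay inside the 95% interval of some of the 94 genes in either comparison.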
